A study of Mus musculus with 27 samples.

Results

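The complement system is a cascade of plasma and tissue proteins that tags damaged cells, microbes and immune complexes for removal by phagocytes. Its classical pathway opens when C1q binds its target and passes the signal through C4 and C2 to C3, the alternative pathway amplifies C3 cleavage with properdin as stabilizer, and the small fragments C3a and C5a call in leukocytes through their receptors. In injured skeletal muscle, complement is known to take part in the early recruitment of inflammatory cells and the clearance of necrotic fibres. The transcripts described here are 9 complement components and receptors, picked by gene symbol (C1qa, C1qb, C1qc, C3, C4b, C3ar1, C5ar1, Cfp and Serping1) from the 54532 genes of a mouse bulk RNA sequencing table. All 9 passed the filter on low values that 14630 genes passed.

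Volumetric muscle loss (VML), the removal of more muscle than can regenerate, was modelled by excising 40% of the tibialis anterior muscle of 8-week-old male C57BL/6 mice. Whole muscles were sequenced without injury (control, 5 samples) and at day 3 (5 samples), day 7 (6 samples), day 14 (6 samples) and day 21 (5 samples) after VML, to follow the course of the transcriptome after the injury. The labels name no transgene, drug or sham surgery in any group, and the study describes its control muscle as not injured. The study's methods describe a bilateral excision and its public record a unilateral one, which the sample labels do not settle. Levels are FPKM, fragments per kilobase of gene as scaled by the authors, which corrects for gene length and so allows genes to be compared. The scaling was not to each sample's own reads, and it differed between control and day 3. The samples held 14376395 to 24436763 reads on genes, with a median of 17398586. In whole muscle, a change in the number of cells that make a transcript cannot be told apart from a change in the RNA that each cell makes.

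The samples were not cleanly ordered by day. Over all tested genes, 9 of 27 samples lay nearer to the mean of another group than to that of their own. Among them replicate 5 of day 3 lay nearest to day 7, and replicate 5 of day 7 lay nearest to day 3. Across the 10 genes of a macrophage list, the summed level was 339 FPKM in replicate 5 of day 3, against 1027 to 2201 in the other day 3 samples. In replicate 5 of day 7 it was 2073 FPKM, against 51.1 to 432 in the other day 7 samples. The groups follow the labels throughout, and calls of the 9 genes that were lost without these libraries are given with and without them.

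The 3 chains of C1q are encoded side by side on the minus strand of chromosome 4 (GRCm38), where C1qb (chr4:136880129-136886187), C1qc (chr4:136889804-136893065) and C1qa (chr4:136895917-136898803) lie within 18.7 kb. C3 lies at chr17:57203970-57228136. The RefSeq promoter table (GRCm38.p6) held 6 of the 9 genes, and the 250 bases before the annotated start are shown for C1qb, a C1q chain that was highest at day 3, and for C3, whose highest mean was at day 7. Capitals mark matches, on either strand, to GAGGAA, the core bound by PU.1-like factors of myeloid cells, or to TTGCNNAA, a C/EBP-type motif. The C1qb window covers chr4:136886201-136886450 and that of C3 chr17:57228137-57228386, each printed 5′ to 3′ on the minus strand.
C1qb: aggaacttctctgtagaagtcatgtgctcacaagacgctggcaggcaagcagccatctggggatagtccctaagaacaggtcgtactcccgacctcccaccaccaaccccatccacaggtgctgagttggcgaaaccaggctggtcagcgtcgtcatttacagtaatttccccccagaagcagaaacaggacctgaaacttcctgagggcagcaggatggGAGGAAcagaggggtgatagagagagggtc
C3: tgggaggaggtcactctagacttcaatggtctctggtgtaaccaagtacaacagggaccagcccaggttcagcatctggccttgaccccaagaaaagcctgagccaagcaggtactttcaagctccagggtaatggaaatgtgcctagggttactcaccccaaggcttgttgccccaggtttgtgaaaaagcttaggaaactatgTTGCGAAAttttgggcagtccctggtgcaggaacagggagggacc
GAGGAA was found once before C1qb, 30 bases from the start, and once before C1qc on the opposite strand, as TTCCTC, 193 bases from the start. Distances count from the RefSeq start, and the windows of C1qc, C3ar1 and C5ar1 reach into the span that the deposited table gives these genes. GAGGAA was not among the letters of the other 4 windows (C3, C3ar1, C5ar1 and Cfp). Of 32851 mouse promoter windows of this length 23.3% held it, so a match is common. TTGCNNAA was found once, before C3, 45 bases from the start, and in 9.56% of all windows. Of 2 further motifs searched, TGANTCA (6.75% of all windows) was found before C3ar1, 22 bases from the start, and TATAAA (12.4%) also before C3ar1, 235 bases from the start. These matches describe letters and not sites of binding.

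All 9 complement transcripts rose at day 3 and at day 7 in comparison with uninjured muscle, 5 of the 9 were still higher at day 14, and none passed the test at day 21. At day 3 every sample lay above every control sample for all 9 genes, a separation that 19.8% of the tested genes showed in that direction. By limma with Benjamini-Hochberg adjustment at 0.05, the share of all tested genes called higher was 23.4%, 15%, 9.02% and 1.74% for the same 4 days, and in either direction 43.2%, 29.4%, 20.3% and 3.43%. The median log2 fold change of the 9 genes was 2.80, 1.82, 1.14 and 0.85 in order of time. Over all tested genes the median was 0.012, 0.028, 0.020 and 0.014.

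**Figure D1:**
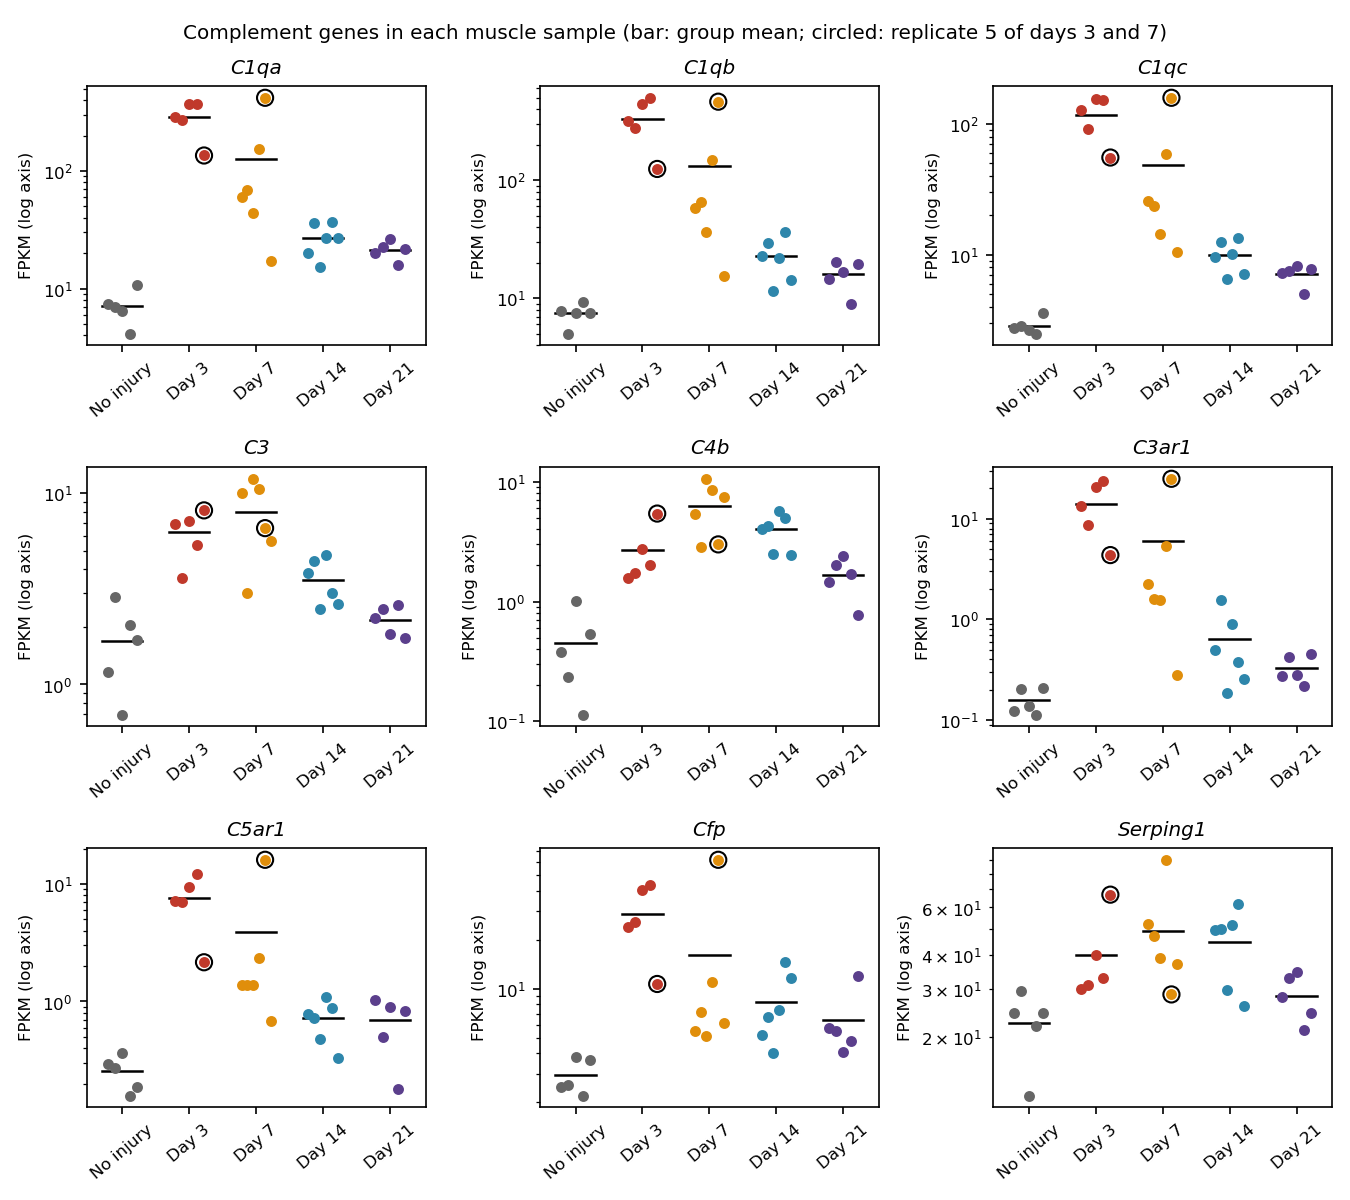
FPKM (log axis) of each complement gene in every sample by group, with the group mean as a bar and replicate 5 of day 3 and of day 7 circled. C1qa, C1qb, C1qc, C3ar1, C5ar1 and Cfp have their highest mean at day 3, whereas C3, C4b and Serping1 have theirs at day 7.

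C1qa, C1qb and C1qc encode the A, B and C chains of C1q, the recognition protein of the classical pathway, which in most tissues is made mainly by macrophages. C1qa was at 4.14, 6.47, 6.98, 7.36 and 10.8 FPKM in the 5 control samples. At day 3 its levels were 135, 272, 287, 370.5 and 373 FPKM, and at day 21 they were 16, 20.0, 21.5, 22.6 and 26.5 FPKM. No day 3 or day 21 sample reached down to the control range. At day 7 the lowest, median and highest samples held 17.1, 64.0 and 419 FPKM, and at day 14 they held 15.2, 26.9 and 37.1 FPKM. The day 3 and day 7 samples overlapped, since replicate 5 of day 7 (419 FPKM) was above every day 3 sample and replicate 5 of day 3 (135 FPKM) was below the next highest day 7 sample (155 FPKM).

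Mean C1qa was 40.2-fold, 17.8-fold, 3.80-fold and 2.99-fold the control mean at days 3, 7, 14 and 21. Without replicate 5 of day 7 the day 7 mean was 68.7 FPKM, 9.61-fold the control mean. In log2(FPKM + 1), the rise at day 3 was 5.11 ± 0.50 (SE, adjusted p = 9.14e-08), that of day 7 was 3.31 ± 0.48 (adjusted p = 3.94e-05) and that of day 14 was 1.78 ± 0.48 (adjusted p = 0.0109). At day 21 the difference of 1.49 ± 0.50 missed the threshold (adjusted p = 0.0927). The largest relative increase among the chains was that of C1qb, whose mean went from 7.43 ± 1.55 (SD, n = 5) to 332 ± 147 FPKM (SD, n = 5) at day 3, 44.7-fold. Its individual day 3 samples were at 125, 279, 315, 443 and 499 FPKM, and its control samples at 5.02, 7.44, 7.47, 7.87 and 9.33 FPKM. C1qc had about the same fold (41.2) from a lower level, between 2.48 and 3.54 FPKM in control samples and between 55.5 and 156 FPKM at day 3. At day 14 C1qc was called (log2 difference 1.46, adjusted p = 0.0163) and C1qb was not (1.42, adjusted p = 0.0567). Several alternatives did call C1qb at day 14, among them the fit of only control and day 14 (adjusted p = 0.00257).

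C1qa and C1qb stayed above C1qc in every sample, while the ratio of C1qa to C1qb differed between days 3 and 21. C1qa was above C1qc in all 27 samples, with a median ratio of 2.47 in control and of 2.42, 2.63, 2.73 and 3.03 in the injured groups in order of time. The median ratio of C1qb to C1qc was 2.81 in control and 2.85, 2.53, 2.26 and 2.07 in the injured groups, with ranges that overlapped. C1qa and C1qb were close to each other, and their order differed by day. C1qa was the higher in 1 of 5 samples at day 3, with ratios of 0.747 to 1.09, and in 5 of 5 samples at day 21, with ratios of 1.09 to 1.80. In control samples this ratio covered 0.444 to 1.44, which overlapped the range of either day, and these ratios were not tested.

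Properdin, encoded by Cfp on chromosome X, stabilizes the C3 convertase of the alternative pathway and is stored and released by neutrophils, monocytes and T cells. Cfp was at 2.20, 2.47, 2.54, 3.62 and 3.78 FPKM in control samples and at 10.7, 23.8, 25.8, 40.6 and 43.0 FPKM at day 3. At day 21 the samples were at 4.05, 4.75, 5.49, 5.74 and 11.97 FPKM, all above the control range. The increase was 2.80 ± 0.47 at day 3 (log2, adjusted p = 4.80e-05) and 1.501 ± 0.45 at day 7 (adjusted p = 0.0142), but 1.14 ± 0.45 at day 14 (adjusted p = 0.0711) and 0.85 ± 0.47 at day 21 (adjusted p = 0.315) were not called. At day 7 Cfp was between 5.11 and 10.9 FPKM in 5 samples and at 61.8 FPKM in replicate 5. Its day 7 mean was 16.1 FPKM with that sample and 6.96 FPKM without it, and fitted to control and day 7 alone the call was lost (adjusted p = 0.0549).

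C3ar1 and C5ar1 encode the G protein-coupled receptors for the anaphylatoxins C3a and C5a, found mainly on myeloid cells. Both held few reads in uninjured muscle, where C3ar1 rested on 6 to 15 reads per sample and C5ar1 on 5 to 12. C3ar1 went from 0.113, 0.122, 0.139, 0.202 and 0.206 FPKM in control samples to 4.36, 8.68, 13.3, 20.7 and 23.5 FPKM at day 3. The groups were far apart, and the ratio of their means was 90.3, the largest among the 9 genes, though with few reads in its denominator. C5ar1 went from 0.158, 0.186, 0.271, 0.292 and 0.365 FPKM to 2.16, 7.04, 7.18, 9.45 and 12.3 FPKM, a ratio of means of 29.95. On the log2(FPKM + 1) scale, which understates changes of low genes, the rises were 3.51 ± 0.49 for C3ar1 (adjusted p = 6.85e-06) and 2.64 ± 0.41 for C5ar1 (adjusted p = 1.97e-05).

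Both receptors also rose at day 7, C3ar1 by 1.82 (adjusted p = 0.00596) and C5ar1 by 1.40 (log2, adjusted p = 0.00911, and 0.0535 with only control and day 7 fitted). The day 7 samples of C3ar1 had a lowest, median and highest level of 0.280, 1.93 and 24.97 FPKM, and those of C5ar1 of 0.687, 1.39 and 16.1 FPKM, with replicate 5 the highest for both. By day 14 neither was called, with log2 fold changes of 0.44 for each (adjusted p = 0.528 for C3ar1 and 0.440 for C5ar1). C3ar1 nevertheless lay above the control range in all 5 samples of day 21, at 0.216, 0.275, 0.277, 0.419 and 0.458 FPKM, on 14 to 24 reads. C5ar1 at day 21 was at 0.181, 0.497, 0.837, 0.905 and 1.04 FPKM, with 1 sample inside the control range.

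The balance of the anaphylatoxin receptors within a sample differed by day. C3ar1 was above C5ar1 in 5 of 5 samples at day 3, with ratios of 1.23 to 2.19, and in 5 of 6 at day 7. It was above C5ar1 in 1 of 5 samples in control, 1 of 6 at day 14 and 1 of 5 at day 21. The exception at day 7 was replicate 6, where the ratio was 0.407, and the ratios of control, day 14 and day 21 rest on few reads of either gene.

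C3, the central component on which all pathways converge, and C4b, the classical and lectin pathway component C4, had their highest mean at day 7. C3 was at 0.696, 1.17, 1.70, 2.04 and 2.88 FPKM in control samples and at 3.61, 5.40, 6.91, 7.18 and 8.15 FPKM at day 3. At day 7 the lowest, median and highest C3 levels were 3.00, 8.30 and 11.9 FPKM, and all day 7 samples were above the control samples. The increase was 1.44 ± 0.26 at day 3 (log2, adjusted p = 9.89e-05), 1.68 ± 0.25 at day 7 (adjusted p = 4.57e-05) and 0.78 ± 0.25 at day 14 (adjusted p = 0.0280). The day 14 call was lost without control replicate 3 (adjusted p = 0.0913), in 3 other fits that left out 1 sample, with no filter (0.0644) and with quantile normalization (0.0646). At day 21 the samples, at 1.76 to 2.60 FPKM, lay within the range of the control samples (log2 difference 0.29, adjusted p = 0.572).

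C4b was at 0.114, 0.235, 0.382, 0.540 and 1.003 FPKM in control samples and at 1.56, 1.73, 2.02, 2.76 and 5.41 FPKM at day 3, where the highest was replicate 5. At day 7 its lowest, median and highest levels were 2.85, 6.39 and 10.6 FPKM, at day 14 they were 2.46, 4.15 and 5.74 FPKM, and the 5 samples of day 21 held 0.771, 1.45, 1.69, 2.005 and 2.42 FPKM. Every sample of days 3, 7 and 14 exceeded the control samples, and at day 21 only 1 sample lay inside the control range. C4b rose by 1.29 ± 0.29 at day 3 (log2, adjusted p = 8.20e-04), 2.23 ± 0.27 at day 7 (adjusted p = 6.38e-06) and 1.77 ± 0.27 at day 14 (adjusted p = 2.34e-04). At day 21 it differed by 0.87 ± 0.29 (adjusted p = 0.0883). C4a, a near-identical copy on the same chromosome whose reads a counter may assign to either gene, held a mean of 0.0335 to 0.0873 FPKM per group.

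After injury, the median ratio of C4b to C3 was lowest at day 3 and highest at day 14. Its values were 0.384, 0.848, 1.04 and 0.651 at the 4 days after injury, and C4b was the higher in 0 of 5, 1 of 6, 4 of 6 and 1 of 5 samples. Day 3 samples covered 0.225 to 0.664 and day 14 samples 0.931 to 1.65, without overlap. In control samples the ratio ran from 0.0560 to 1.44 on as few as 8 reads of C4b, so no direction from uninjured muscle can be read.

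Serping1 encodes C1 inhibitor, the serpin that inactivates C1r, C1s and the MASP proteases, and it was the most abundant of the 9 transcripts in uninjured muscle. Control samples held 12.2, 22, 24.5, 24.6 and 29.4 FPKM, and day 3 samples 30.1, 31.0, 32.8, 40.1 and 66.9 FPKM. The groups did not overlap, but the gap between 29.4 and 30.1 FPKM was narrow, and the highest day 3 sample was replicate 5. The change of 0.79 ± 0.28 (log2, adjusted p = 0.0244) lost its call without replicate 5 of day 3 (0.60, adjusted p = 0.0900), without control replicate 3 (0.60, adjusted p = 0.0937) and with no filter (adjusted p = 0.0515). Serping1 was higher at day 7 by 1.04 ± 0.27 (adjusted p = 0.00568) and at day 14 by 0.95 ± 0.27 (adjusted p = 0.0147, and 0.0555 without control replicate 3). At day 21, 21.2 to 34.7 FPKM overlapped the control range (log2 difference 0.35, adjusted p = 0.525). Where C1qa exceeded its control mean by 40.2-fold at day 3, Serping1 exceeded its own by 1.78-fold, and the ratio of their group means went from 3.15 to 0.140.

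**Figure D2:**
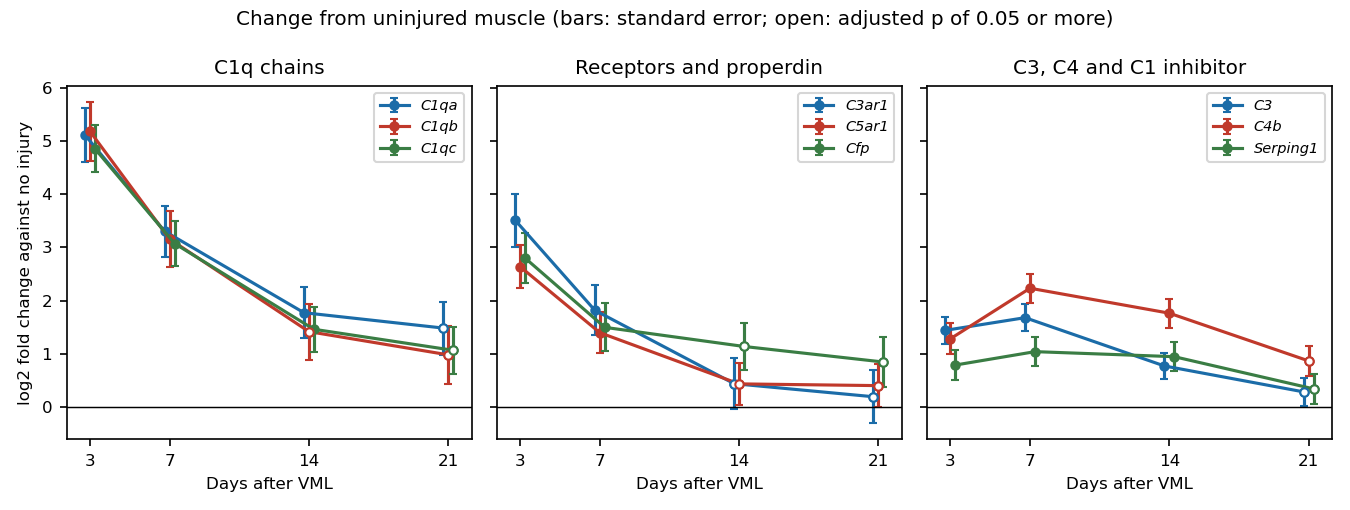
Log2 fold change (in log2(FPKM + 1)) of each gene against uninjured muscle at days 3, 7, 14 and 21, with standard errors as bars and open points where the adjusted p was 0.05 or more. The C1q chains start near 5 and decline, the receptors and properdin start between 2.64 and 3.51, and C4b is highest at day 7 with 2.23.

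The day of the highest group mean differed among the 9 genes. C1qa, C1qb, C1qc, C3ar1, C5ar1 and Cfp had their highest mean at day 3, and C3, C4b and Serping1 at day 7. With all samples fitted, limma called 0 of the 9 genes between day 7 and day 3, where 0.0478% of all tested genes were called in either direction. At an unadjusted p under 0.05 there were 7 of the 9. The voom fit of recovered reads also called 0. Adjusted p lay between 0.0682 for C1qc and 0.718 for Serping1.

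Leaving out replicate 5 of day 3 and replicate 5 of day 7, a choice made after seeing the data, gave a different count for the same comparison. Then 6 of the 9 were lower at day 7 than at day 3 and 1 was higher, where 11.9% of all tested genes were called lower and 3.53% higher. The 6 that fell were C1qb by 2.87, C3ar1 by 2.55, C1qa by 2.54, C1qc by 2.48, Cfp by 2.10 and C5ar1 by 2.04 on the log2 scale, with adjusted p from 4.65e-08 for C5ar1 to 2.71e-05 for C1qa. C4b was higher at day 7 by 1.32 (adjusted p = 7.36e-04). The same split of 6 lower and 1 higher resulted when only the day 3 library or only the day 7 library was left out. For those fits the share of all tested genes is not given here. C3 (0.36, adjusted p = 0.441) and Serping1 (0.58, adjusted p = 0.155) did not pass in either direction without both libraries. Without them, C5ar1 was at 7.04 to 12.3 FPKM at day 3 and 0.687 to 2.34 FPKM at day 7. C4b was at 1.56 to 2.76 FPKM at day 3 and 2.85 to 10.6 FPKM at day 7. The days no longer overlapped for either gene, but the samples left out were among those that overlapped. This separation and the adjusted p of that fit are therefore not independent of the choice. Against uninjured muscle, 8 of the 9 were then called at day 3 (all but Serping1), 9 at day 7, 7 at day 14 and 3 at day 21. Of all tested genes, 23.8%, 12.4%, 11.6% and 2.52% were called higher in that fit.

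**Figure D3:**
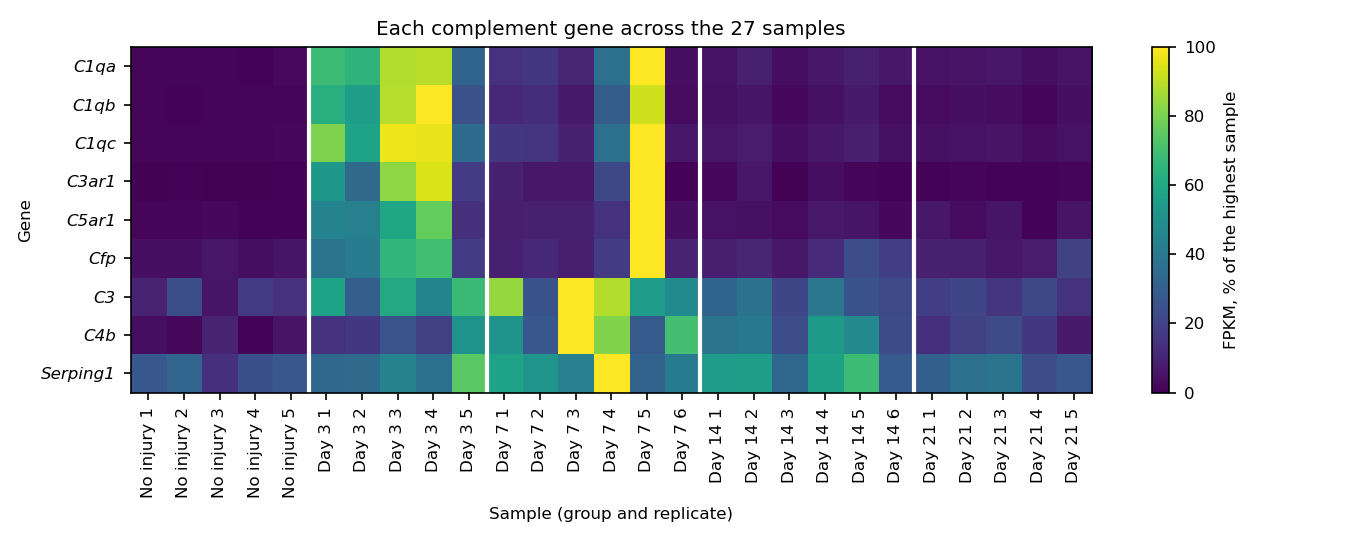
FPKM of each gene in each of the 27 samples as a percent of that gene's highest sample, with white lines between groups. The upper 6 rows are bright at day 3 and in replicate 5 of day 7. In each of these rows replicate 5 of day 3 (13.4% to 34.8%) is dimmer than the other day 3 samples. C3 and C4b are brightest in replicate 3 of day 7 and Serping1 in replicate 4 of day 7.

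Between later days, none of the 9 genes passed the test with all samples fitted. From day 7 to day 14, 0 of the 9 were called by limma (0.335% of all tested genes in either direction, 0.116% higher and 0.219% lower) and 6 had an unadjusted p under 0.05. From day 14 to day 21, 0 were called (0.0% of all tested genes) and 2 had an unadjusted p under 0.05, C4b with a difference of -0.90 and Serping1 with -0.60. The voom fit called 0 in both. Leaving out single samples changed the first of these counts, to 1 without replicate 2 of day 7 (C3) and to 4 without replicate 6 of day 7 (C1qa, C1qb, C1qc and C3ar1). The share of all tested genes called in those fits is not given here, so the changed counts are not read as particular to these genes.

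Over the longer interval from day 3 to day 21, 7 of the 9 genes fell, where 16.2% of all tested genes were called lower and 9.23% higher. C1qb fell by 4.20 ± 0.55 (log2, adjusted p = 3.23e-05), C1qc by 3.78, C1qa by 3.62, C3ar1 by 3.31, C5ar1 by 2.23, Cfp by 1.95 (adjusted p = 0.00340) and C3 by 1.16 (adjusted p = 0.00190). C4b (-0.42, adjusted p = 0.300) and Serping1 (-0.45, adjusted p = 0.251) were not called, though both were with levels rescaled to TPM (-0.83, adjusted p = 0.0448, and -1.06, adjusted p = 0.0335). The share of the rise from control to the highest group mean that was left at day 21 was 1.23% for C3ar1, 2.64% for C1qb, 3.74% for C1qc, 5.06% for C1qa, 5.93% for C5ar1, 7.81% for C3, 13.5% for Cfp, 20.8% for C4b and 21.7% for Serping1. None of the 9 genes was called by limma against control at day 21, with adjusted p = 0.525 for Serping1 and 0.572 for C3. The shares were not tested. When 1 sample was left out, the share of Serping1 ran from 13.2% (without control replicate 3) to 31.5% (without replicate 4 of day 7). That of C3 ran from 3.97% (without control replicate 3) to 11.97% (without control replicate 2), and that of Cfp from 8.08% (without replicate 5 of day 21) to 15.7%.

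At day 21 the number of genes called depended on which samples shared the fit. With all 27 samples, limma called 0 of the 9 genes and 3 had an unadjusted p under 0.05 (C4b 0.00545, C1qa 0.00611 and C1qc 0.0226), and the voom fit called 0. With only the control and day 21 samples in the fit, 5 were called (C1qa, C1qb, C1qc, C4b and Cfp), with 10.1% of all tested genes called in either direction against 3.43% in the fit of all samples. Without replicate 5 of day 3 and of day 7, 3 were called (C1qa, adjusted p = 0.0182; C1qc, 0.0330; C4b, 0.0421), with 4.80% of all tested genes. The levels themselves were separate for 4 genes, C1qa, C1qc, C3ar1 and Cfp, of which every day 21 sample was above every control sample, as for 5.26% of the tested genes. Every sample of day 7 was above the control samples for 8 of the 9 genes (7.25% of the tested genes), and of day 14 for 5 of the 9 (7.67%).

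The levels of the C1q chains and the receptors moved with macrophage markers. All 10 genes of the macrophage list (Lyz2, Cd68, Csf1r, Aif1, Adgre1, Cd14, Fcgr1, Mrc1, Mertk and Cd163) were called higher at days 3 and 7, 2 (Lyz2 and Cd68) at day 14 and 0 at day 21, where 0 also had an unadjusted p under 0.05 and the voom fit called 0. Without replicate 5 of days 3 and 7 these counts were 10, 9 (all but Mertk), 5 and 0. Their summed level ran from 18.5 to 27.9 FPKM in control samples. It covered 339 to 2201 FPKM on day 3, 51.1 to 2073 on day 7, 47.9 to 111 on day 14, and 33.4 to 60.4 on day 21. The neutrophil list passed the filter with 3 of 8 genes, all higher at day 3, with a summed level of 0.456 to 4.31 FPKM in control and 20.3 to 37.7 FPKM at day 3. Hepatocyte markers, of the main source of plasma complement, summed to at most 0.390 FPKM in any sample. Fibroblast and fibro-adipogenic markers were higher for 5 of 8 genes at each of days 3, 7 and 14, with sums of 128 to 183 FPKM in control and 364 to 889 FPKM at day 7. Muscle fibre markers summed to 23140.4 to 116048 FPKM over all samples and were lower for 7 of 8 genes at day 3. The part of these cell types in the complement levels was not tested.

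The ratio of C1qa to single macrophage genes depended on the gene it was set against. To Aif1 (a calcium-binding protein of macrophages) the median ratio was 13.7 in control and 11.9, 14.7, 11.8 and 19.2 at days 3 to 21, and to Adgre1 it was 24.6 and then 23.03, 30.2, 33.8 and 38.9, so neither moved far from control to day 3. The median ratio of C1qa to Csf1r, the receptor for macrophage colony-stimulating factor, was 5.54 in control and 9.51, 9.37, 6.60 and 9.70 at the 4 successive days. Relative to Cd68, a lysosomal protein of phagocytes, C1qa was at 5.87 in control and then at 2.04, 3.33, 2.81 and 4.87. The ratio to Mrc1, the mannose receptor of resident macrophages, was 7.12 in control and then 36.7, 24.04, 16.01 and 16.5, and day 3 (28.2 to 41.7) did not overlap control (5.60 to 20.1). The ratio to Cd163, another marker of resident macrophages, went from a range of 7.73 to 24.6 in control to 124 to 236 at day 3. From control to day 3 the median ratio went from 0.513 to 0.237 for Lyz2 and from 97.7 to 23.4 for Fcgr1. It went from 9.94 to 27.9 for Cd14 and from 12.2 to 124 for Mertk. Fcgr1 was at 0 in control replicate 2, which its median leaves out. These are ratios of levels per length and were not tested.

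**Figure D4:**
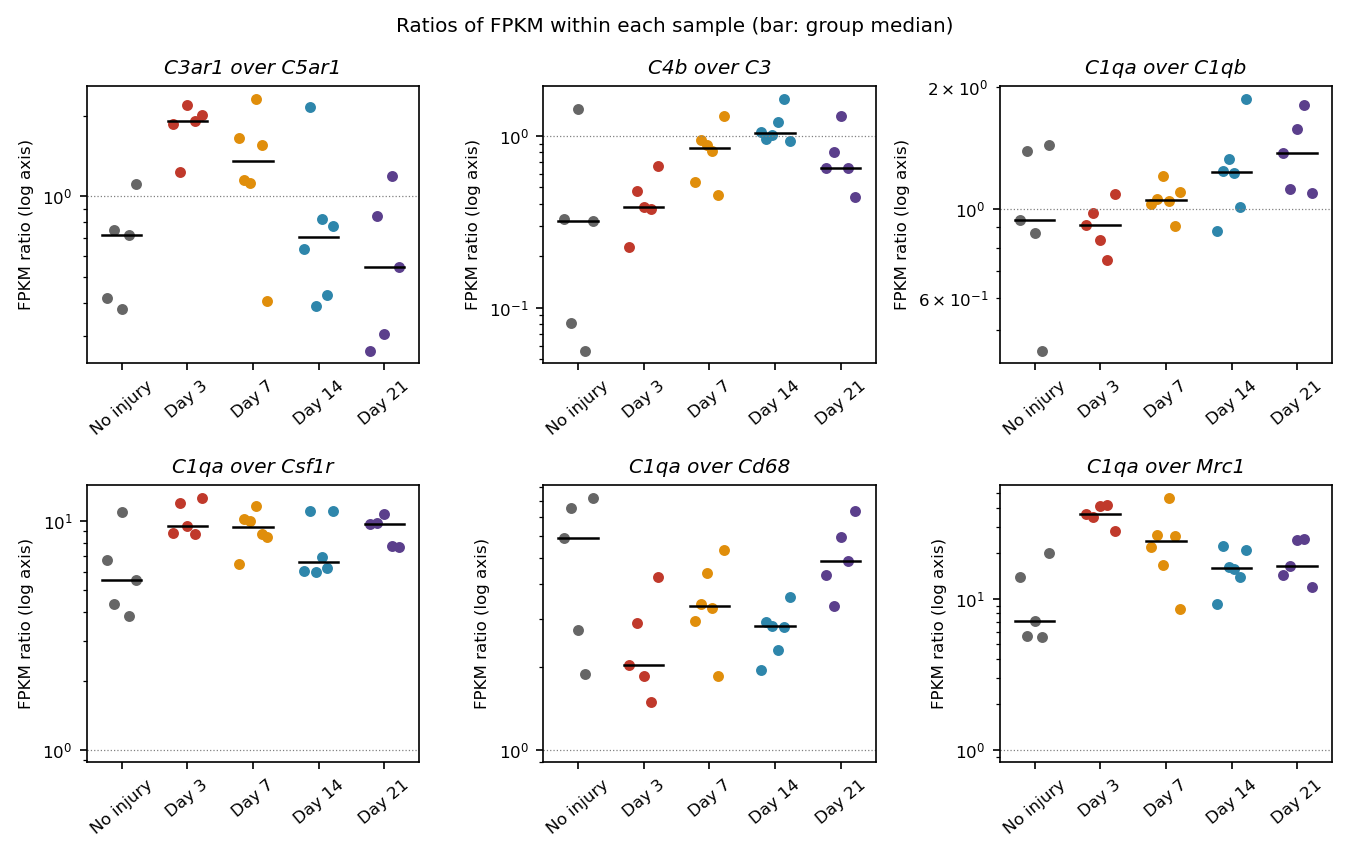
Ratios of FPKM within each sample (log axis) by group, with the group median as a bar and a dotted line at equal levels. C3ar1 is above C5ar1 in 5 of 5 samples at day 3, C4b over C3 is highest at day 14 with a median of 1.04, and C1qa over Cd68 is lowest at day 3 with a median of 2.04.

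Genes with the most similar profile over the 27 samples were sought by the root mean square difference in log2(FPKM + 1) after centring each gene on its control mean, with the 9 genes left out of the search. C1qc was nearest to Apoe (0.271), Mpeg1 (0.312) and Tyrobp (0.391), and C1qa also to Apoe (0.300). For C1qb it was Tyrobp (0.343), an adaptor of myeloid receptors. C3ar1 was nearest to Adgre1 (0.267), which encodes the macrophage antigen F4/80, and C5ar1 to Cd37 (0.215), a leukocyte tetraspanin. Cfp was nearest to Capg (0.286), an actin-capping protein. The genes with their highest mean at day 7 had other neighbours, C3 being nearest to Antxr1 (0.381), C4b to Thbs3 (0.504) and C1ra (0.529), and Serping1 to Nid1 (0.265), a basement membrane protein. Among the 9 genes themselves, the nearest pair was C1qb and C1qc (0.302), and the most distant was C1qa and Serping1 (2.39). C1qb was nearer to C1qc than to Tyrobp, but C1qc was nearer to Apoe (0.271) than to C1qb. C1qa was also nearer to Apoe (0.300) than to C1qc (0.360).

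The rest of the complement system was described with a list of 50 further genes, of which 24 passed the filter. Day 3 had 8 of these 24 higher and 3 lower, as did day 7, and day 14 had 3 higher and 2 lower. Of all tested genes, 23.4% were called higher and 19.8% lower at day 3. These shares were 15% and 14.4% at day 7, and 9.02% and 11.3% at day 14. Rescaling to TPM gave 13 and 2, 10 and 2, and 4 and 0 of the 24. At each of these days that rescaling also called more of all tested genes higher and fewer lower. For day 21 limma called 0, with 3 at an unadjusted p under 0.05 and 0 called by the voom fit, and without replicate 5 of days 3 and 7 it called C1ra higher and Clu lower. Their median log2 fold change was 0.064, 0.095, 0.29 and 0.042 in order of time. C1ra and C1s1 encode C1r and C1s, the proteases that associate with C1q. C1ra was higher by 1.27, 1.72 and 1.25 on days 3, 7 and 14 (log2, adjusted p = 9.12e-04, 1.18e-04 and 0.00310). C1s1 was called at days 7 (0.98, adjusted p = 0.0113) and 14 (0.80, adjusted p = 0.0457), with 0.45 at day 3 (adjusted p = 0.226). The means of C1ra (2.35 FPKM in control, 7.68 at day 3 and 10.5 at day 7) and C1s1 (6.98, 11.3 and 15.5 FPKM) were highest at day 7, as for C3 and C4b and not as for the C1q chains they assemble with. With all samples fitted, limma called 0 of the 24 genes between day 7 and day 3, so this is an order of means only.

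Among receptors, the integrin subunits of CR3 and CR4 were called at day 3, Itgb2 by 3.31 (adjusted p = 2.91e-06), Itgam by 2.21 (adjusted p = 9.17e-05) and Itgax by 1.97 (adjusted p = 1.83e-06). Cd93, a C1q-binding receptor of endothelial and myeloid cells, was higher at day 3 by 0.70 (adjusted p = 0.0464, but 0.0575 with quantile normalization and 0.0771 without replicate 5 of days 3 and 7). Of the lectin genes on the list, Fcna (1.48 at day 3) and Colec12 (1.24 at days 3 and 7) were higher. Colec11 was not called (-0.08 at day 3, adjusted p = 0.831, and 0.22 at day 7, adjusted p = 0.514). Masp1, a protease of the lectin pathway, was at 0.01 at day 3 (adjusted p = 0.971) and -0.10 at day 7. Cd59a and Cd59b, which encode protectors of cells from the membrane attack complex, were lower with all samples fitted. On days 3, 7 and 14, Cd59b differed from control by -1.48, -1.25 and -1.24, and Cd59a by -1.01, -0.85 and -0.88, all of them called. The call of Cd59a at day 7 was lost without replicate 5 of days 3 and 7 (-0.71, adjusted p = 0.0754). With levels rescaled to TPM, Cd59b at day 3 was still called (-0.90, adjusted p = 0.0144) and Cd59a was not (-0.24, adjusted p = 0.331). At day 14 that rescaling called no gene of the list lower, so neither Cd59a nor Cd59b kept its call. Vtn, vitronectin, which binds the terminal complex, was also lower at day 3 (-1.48) and day 7 (-1.26). Clu was not called, at 0.91 at day 3 (adjusted p = 0.0693) and -0.90 at day 14 (adjusted p = 0.0952). Cd55, a decay accelerator of the convertases, was not called at any of these days (-0.08 at day 3, adjusted p = 0.790). Cd59a and Cd59b are close paralogs, so reads may be split between them.

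Cfd, the alternative pathway protease adipsin, was higher only at day 7 by the test (2.53, adjusted p = 0.0306), with group means of 12.2, 13.2, 114, 43.0 and 27.5 FPKM from control to day 21. The 4 adipocyte markers summed to a median of 1.16 FPKM in control and 16.8 FPKM at day 7. Their part in the Cfd level was not tested. Cfd was at 9.25 to 309 FPKM at day 7, so its samples differed more among themselves than those of C3. Of the terminal components, C7 (823 reads over all 27 samples) and C8g (992 reads) passed the filter and were not called at any day against control. Others held few reads. Hc, which encodes C5, held 26, C9 held 6, Cfb 37 and Cfi 27, and 4 of the 50 genes (C8b, Cfhr2, Mbl1 and Mbl2) held 0 in all samples.

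**Figure D5:**
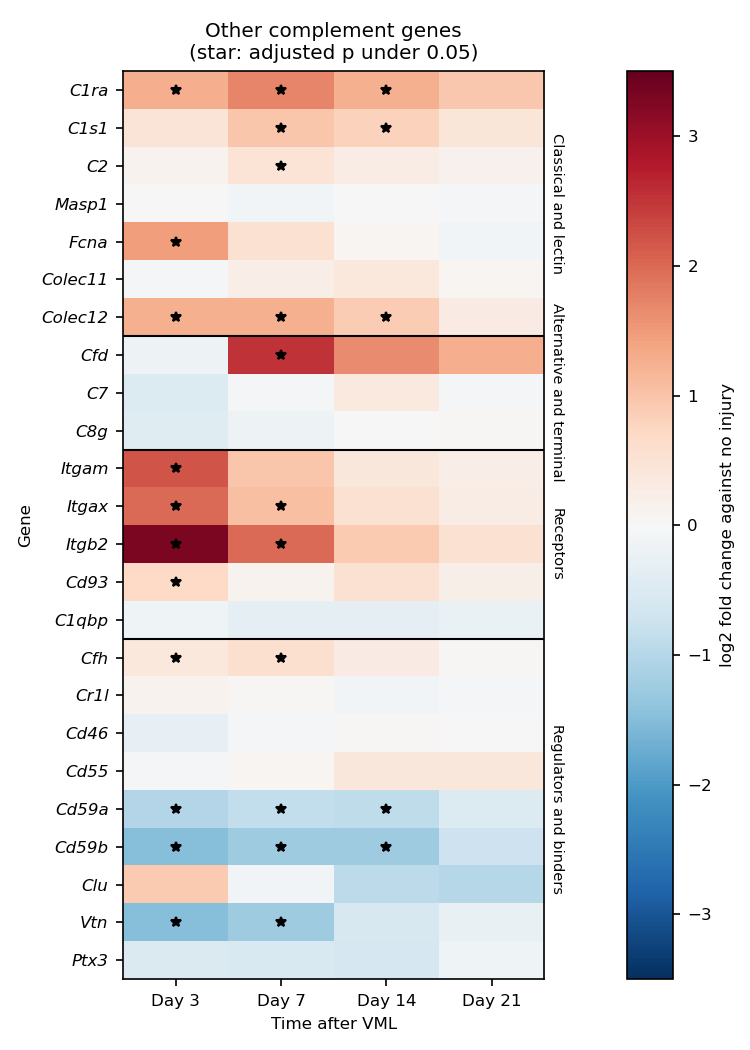
Log2 fold change against uninjured muscle of the 24 further complement genes that passed the filter (rows, by role) at days 3, 7, 14 and 21 (columns), with stars where the adjusted p was under 0.05. Itgb2 at day 3 (3.31) is the strongest increase, and Cd59b and Vtn at day 3 (both -1.48) the strongest decreases.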

How the data were processed

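Total RNA of whole tibialis anterior muscle was enriched for messenger RNA with poly-T beads and made into non-directional libraries, so antisense transcripts cannot be separated. Per the labels, the authors aligned reads with HISAT2 2.0.5 and counted them with featureCounts 1.5.0-p3. The genome build was not given in the sources used here, but coordinates in the deposited table matched GENCODE M21 (GRCm38) for 53462 of 54409 genes found, all 9 complement genes included. The authors deposited 1 table of FPKM with the length of each gene. FPKM times length gave whole reads (within 0.05 of a read) for 100% of values, and the number of reads to which FPKM was scaled was 0.747 to 1.48 times each sample's own reads, so a normalization is already in these values. That multiple was 0.747 to 0.819 in control samples and 1.14 to 1.48 at day 3, without overlap. Levels at day 3 are therefore lower relative to control than with own reads as denominator. Sampling of reads limits genes of few reads, whose reads are given in the text.

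Groups and replicates were read from sample titles. Nothing in the labels says which samples share an animal, so p-values measure the spread between samples. FPKM was transformed to log2(FPKM + 1), which makes fold changes of low genes too small, and limma 3.58.1 (R 4.3.3) was run on genes reaching 0.5 FPKM in 5 or more samples, all 27 samples in 1 fit with a variance trend, two-sided, Benjamini-Hochberg adjusted within each comparison at 0.05. Fold changes of group means are on the linear FPKM scale. The fit was also run on simulated data, with the same setting of spread for every gene and no sample set apart. That run does not show how the fit behaves where samples stand apart, as they do here. Python 3.11.15, pandas 2.3.3, numpy 2.4.6 and matplotlib 3.10.9 made tables and figures.

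The complement genes, the further complement list and the marker lists were chosen with earlier results of these data known. Named genes are the 9 genes, called genes and pathway partners of the further list, marker lists, and the 3 genes nearest in profile to each of the 9. Masp1, Colec11, Cd55, C7, C8g, Hc, C9, Cfb and Cfi were named after their values were seen. Alternatives were pseudocounts of 0.1 and 0.5, no filter, an FPKM minimum of 1, quantile normalization, rescaling to a common sum (TPM), the sample's own reads as denominator, limma without the trend, voom weights on recovered reads, a block for replicate number or for replicate letter, a fit of only the 2 groups compared, each sample left out and, added after seeing the data, replicate 5 of days 3 and 7 left out together.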

Additional observations from a re-analysis of the deposited data

Results flagged for a closer look

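Among the 45 sets of values of 1 gene in 1 group of 5 or 6 samples, 8 had a highest sample far from the others by Dixon's test, a test by which chance marks about 1 group in 20. Of these, 6 were in replicate 5 of day 7, which held 419 FPKM of C1qa, 463 FPKM of C1qb, 159 FPKM of C1qc, 24.97 FPKM of C3ar1, 16.1 FPKM of C5ar1 and 61.8 FPKM of Cfp. That library is the one that lay nearest to the day 3 group, and these 6 values do not count as separate observations. The other two were Serping1 in replicate 5 of day 3, at 66.9 FPKM, and Cfp in replicate 5 of day 21, at 11.97 FPKM.

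The change from uninjured muscle differed between day 21 and day 3, by limma's test of that difference, for 7 of the 9 genes. On the log2 scale the difference was -4.20 for C1qb, -3.78 for C1qc, -3.62 for C1qa, -3.31 for C3ar1, -2.23 for C5ar1, -1.95 for Cfp and -1.16 for C3.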

How the results depend on the processing

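Each of the 9 genes was higher than control at days 3, 7, 14 and 21 under every alternative run, though not always past the threshold, and rescaling to TPM or to own reads moved the median of all tested genes at day 3 by 0.51 and 0.40 (log2). The higher and lower calls over all tested genes at days 3, 7, 14 and 21 were 3417 and 2899, 2189 and 2107, 1320 and 1649, and 255 and 247, under TPM 6868 and 322, 6304 and 209, 1678 and 107, and 42 and 7, and under own reads 6534 and 618, 5348 and 424, 2275 and 288, and 106 and 27. Quantile normalization gave 2774 and 3734 at day 3. The number of the 9 genes called at day 14 went from 5 to 8 with only the 2 groups compared, and from 3 (without control replicate 3) to 7 when 1 sample was left out. At day 21 it went from 0 to 1 with pseudocounts of 0.1 and 0.5, to 5 with only the 2 groups compared, to 3 without replicate 5 of days 3 and 7, and from 0 to 2 over fits that left out 1 sample (2 without replicate 5 and 1 without replicate 6 of day 7). Between days 7 and 3 it went from 0 to 7 without both replicates 5 and from 0 to 7 over fits that left out 1 sample (7 without replicate 5 of day 3 or of day 7), and between days 14 and 7 from 0 to 4 over such fits (4 without replicate 6 and 1 without replicate 2 of day 7). For most of these fits, and for counts at an unadjusted p, the share of all tested genes is not given here. Such counts describe the 9 genes only. Whether replicate numbers pair the samples was not settled. The 51 same-numbered pairs correlated at -0.52 to 0.57, with a median of -0.0031 against 0.0029 for other pairs. Of 27 samples, 11 correlated best with their own number. With the number as a block 9, 9, 6 and 0 genes were called at days 3, 7, 14 and 21, and with the letter as a block 9, 9, 6 and 1. Directions that turned were small and never called. Cfp from day 7 to 14 was 0.14 without replicate 5 of day 7, alone or with that of day 3, and ran from -0.53 to 0.14 over fits that left out 1 sample. Serping1 over the same step was 0.097 without replicate 4 of day 7, and 0.0062 and 0.046 without replicates 3 and 6 of day 14, in a range of -0.23 to 0.097. C5ar1 from day 14 to 21 was 0.032 with quantile normalization, 0.029 with the letter block, and 0.0046 to 0.090 without replicates 2 or 4 of day 21 or 4 of day 14, in a range of -0.11 to 0.090. The causes were not tested. Depth limits C3ar1, C5ar1 and C4b in control samples.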

Other observations

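The complement genes also ordered the samples within groups in ways that the labels do not describe. Replicate 6 of day 7 held the lowest level of its group for C1qa (17.1 FPKM), C1qb (15.5 FPKM), C1qc (10.5 FPKM), C3ar1 (0.280 FPKM) and C5ar1 (0.687 FPKM), yet 7.41 FPKM of C4b, above the group median of 6.39 FPKM. Its summed macrophage markers were 51.1 FPKM, the lowest of day 7. Replicate 5 of day 21 held the lowest C4b (0.771 FPKM) and C3 (1.76 FPKM) of its group and the highest Cfp (11.97 FPKM). These samples were grouped by their labels, and the differences within groups were not tested.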
